A study of Mus musculus with 8 samples.

Results

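The genes *Tnf*, *Lta*, *Tradd*, *Fadd*, *Ripk2* and *Casp8* were 6 of the 84 Toll-like receptor (TLR) pathway genes read on a quantitative PCR plate in whole mouse spleen. They were picked by name as the TNF-family ligands and the signalling proteins around the death domain, and all 6 were on the plate. The study asked what a week of stimulation with R848 (resiquimod), which activates the RNA receptor TLR7, does in spleen, and whether TLR7 and the type I interferon receptor (IFNAR) are needed. The animals were C57BL/6 wild-type mice, mice labelled TLR7-/- and mice labelled IFNAR-/-, each given 1 mg/kg R848 per day or PBS (Mock) for 7 days. Each of the 8 samples was RNA pooled from 3 mice. Wild type came from 2 experiments, which the files give as 1 mean per treatment, whereas a single pool stood for each treatment of a deficient strain. The 6 resulting values per gene therefore carry no replicate error, no difference was tested, and "higher" and "lower" refer to these pools. Nothing used here gives the age of the mice or how the deficient strains were made.

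TNF and lymphotoxin alpha are related cytokines that bind the TNF receptors. The receptor TNFR1 recruits the adaptor TRADD through a death domain, and from there the signal runs either to NF-kB and the MAP kinases or, through FADD and the protease caspase-8, to apoptosis. RIPK2 is a kinase with a caspase-recruitment domain rather than a death domain, best known for relaying signals of the NOD receptors. In spleen, TNF comes largely from macrophages, dendritic cells and activated lymphocytes, while lymphotoxin alpha is mainly a product of lymphocytes.

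Every level is a delta-Ct, in cycles on a log2 scale, with *Gapdh*, *Hprt1* and *Hsp90ab1* averaged as the reference. A higher delta-Ct means less transcript, and 1 cycle is a 2-fold difference. Readings above 35 cycles were set to 35, so delta-Ct could not pass a cap that lay between 12.43 (IFNAR-labelled Mock) and 15.63 (TLR7-labelled R848), and the highest wild-type R848 value was 16.67. The level of a capped gene is known only as an upper limit, and within a wild-type mean a single capped experiment cannot be recognised. The reference genes crossed the threshold later in Mock than in R848 by at least 3.52 cycles in wild type, by 0.53 in the TLR7-labelled mice and by 2.5 in the IFNAR-labelled mice. Other choices of reference shifted the log2 differences by -1.23 to 0.52 in wild type, by -0.22 to 0.13 in the TLR7-labelled mice and by -2.05 to 0.40 in the IFNAR-labelled mice. *Tlr7* was read at delta-Ct 9.20 and 9.33 in the TLR7-labelled Mock and R848 columns, against 12 and 9.47 in those of wild type. The strains are therefore named here by their labels. Whether the PCR product lies inside the deletion is not stated in the labels. The plate held no IFNAR gene and no lineage-defining surface marker of T or B cells, and the spleen label was not checked further.

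Among the 6 genes, wild-type spleen showed more falls than rises with R848. *Ripk2*, *Tradd* and *Lta* were at least 2-fold lower, *Casp8* was at least 2-fold higher, and *Tnf* and *Fadd* stayed within 2-fold. That is 3 of 6 lower against 13.1% of the 84 pathway genes, and 1 of 6 higher against 38.1%. In the TLR7-labelled pair 1 of 6 was lower, *Casp8*, against 3.57% of the plate, and none was higher, against 4.76%. The *Casp8* readings of both deficient strains may be faulty. In wild type and in the TLR7-labelled pair the direction of 5.95% of the plate was open because of the cap, none of it members. In the IFNAR-labelled pair *Tnf* was higher, against 53.6% of the plate, *Tradd* was lower, against 2.38%, and *Casp8* was at the cap in both columns, as 10.7% of the plate had an open direction. The median log2 difference of the 6 genes was -0.55 in wild type, where that of the pathway genes of known direction was 0.43. It was -0.13 against 0.07 in the TLR7-labelled pair. Over the 5 genes of known direction it was 0.10 against 1.5 in the IFNAR-labelled pair. With every column centred on its own median gene, a choice made after seeing the data, the plate turned from 32 higher and 11 lower to 15 and 33 in wild type, and from 45 and 2 to 14 and 30 in the IFNAR-labelled pair.

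**Figure D1:**
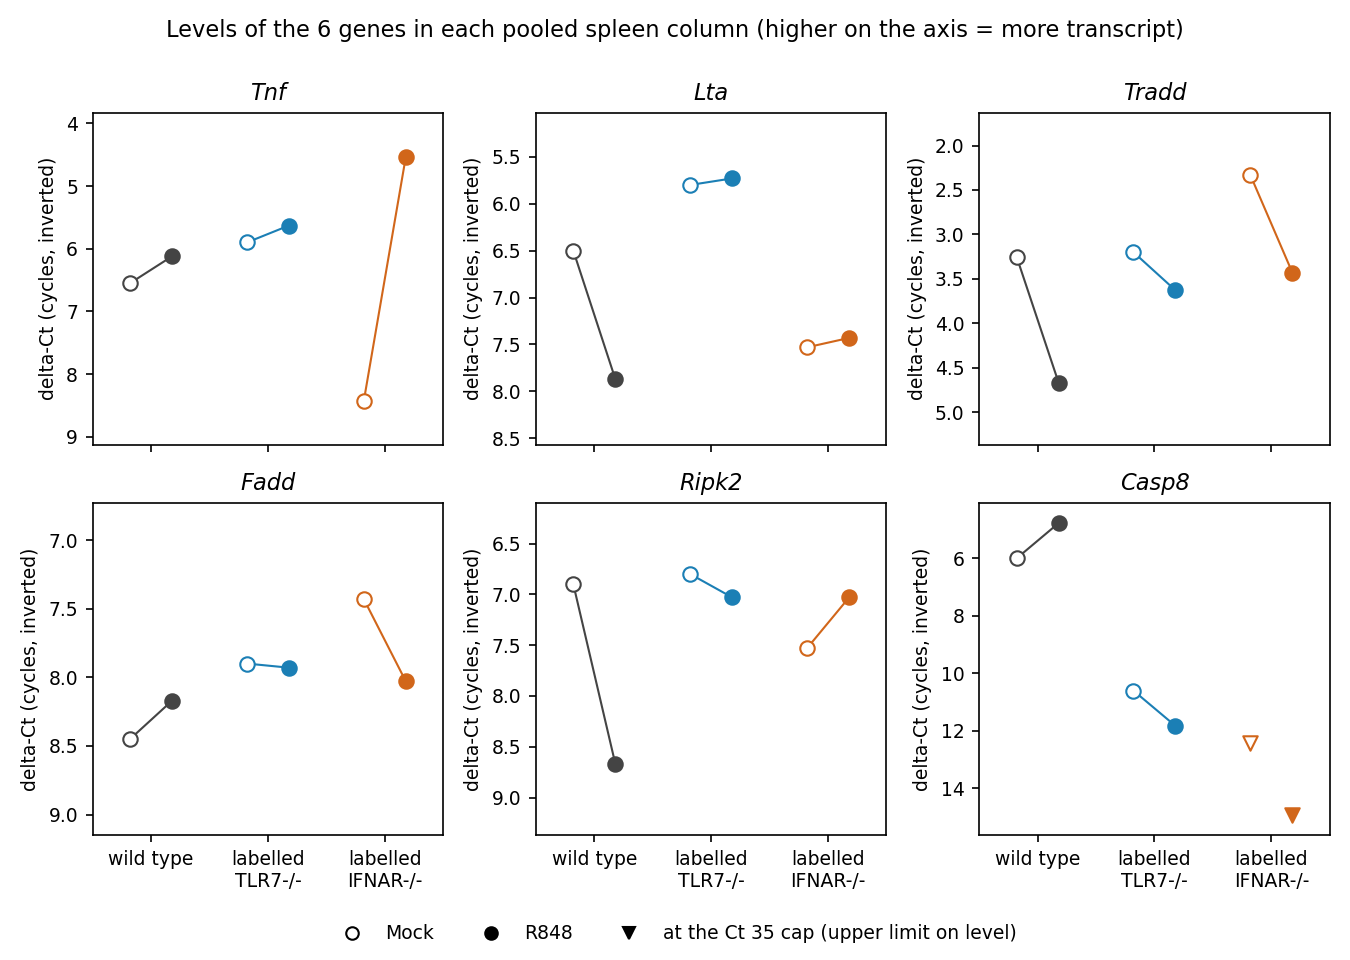
delta-Ct of each gene (vertical axis, cycles, inverted so that more transcript is higher) in the 6 pooled columns, open symbols for Mock and filled symbols for R848, joined within a strain. Triangles mark *Casp8* at the Ct cap. *Tnf* spans 4.53 to 8.43 within the IFNAR-labelled pair alone, while *Fadd* spans 7.43 to 8.45 over all 6 columns.

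The ligands come first. *Tnf* and *Lta* are neighbours on mouse chromosome 17: the RefSeq annotation of GRCm38.p6 places *Tnf* at chr17:35199367-35202007 and *Lta* at chr17:35203165-35205578, with 1157 bases between them. The 250 bases before the start of *Tnf*, the member with the largest difference between R848 and Mock, are shown from chr17:35202008-35202257, 5′ to 3′ on the minus strand.
Tnf: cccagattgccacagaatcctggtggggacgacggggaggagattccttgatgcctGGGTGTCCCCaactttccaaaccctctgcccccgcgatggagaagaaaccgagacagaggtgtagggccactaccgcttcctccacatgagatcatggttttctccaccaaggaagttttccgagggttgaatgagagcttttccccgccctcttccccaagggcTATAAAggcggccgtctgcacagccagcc
Capitals mark a kappaB-like motif (GGG, any 5 bases, then CC) and a TATA box (TATAAA), both searched on either strand. The kappaB-like match begins at base -194 and is found on both strands, and the TATA box begins at base -29. A kappaB-like match was in 45.8% and a TATA box in 12.4% of 32851 promoter windows of this length. The window held neither the AP-1 motif TGANTCA, in 6.75% of windows, nor the interferon-response core (GAAA, any 2 bases, then GAAA), in 2.98%. A match describes letters only, and no binding was measured. The window of the table for *Lta* lies largely within the annotated gene and is not shown.

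*Tnf* differed most in the mice labelled IFNAR-/-. Wild-type Mock and R848 read delta-Ct 6.55 and 6.12, the TLR7-labelled columns 5.90 and 5.63, and the IFNAR-labelled columns 8.43 and 4.53. The lowest and the highest of its 6 levels were thus the Mock and the R848 column of the IFNAR-labelled mice. As a share of the mean reference transcript, assuming doubling in each cycle, that is 0.290% in Mock and 4.33% in R848. The log2 difference was 3.90, or 14.9-fold higher with R848, which ranked 6 of 75 genes of known direction from the top. It stayed between 1.85 and 4.30 over all scalings tried. Both columns contributed: IFNAR-labelled Mock was 3.68-fold below wild-type Mock, and IFNAR-labelled R848 was 3.01-fold above wild-type R848. Against wild-type Mock as the control, a comparison added once the values were known, the log2 difference was 2.02, and against TLR7-labelled Mock it was 1.37. In wild type the log2 difference of *Tnf* was 0.43, turning to -0.80 with columns centred on their own medians, and in the TLR7-labelled pair it was 0.27.

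*Lta* showed a different order. Wild-type Mock and R848 read delta-Ct 6.50 and 7.87, the TLR7-labelled columns 5.80 and 5.73, and the IFNAR-labelled columns 7.53 and 7.43. The TLR7-labelled columns held the highest levels and wild-type R848 the lowest, with the IFNAR-labelled columns close above it. In wild type *Lta* was 2.58-fold lower with R848, a log2 difference of -1.37 that ranged from -2.60 to -0.85 over the scalings and missed 2-fold with *Hsp90ab1* alone as reference. The differences of 0.07 and 0.10 in the deficient strains turned below 0 under some scalings (lowest -0.15 and -1.95).

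Within a column the ratio of one gene to another does not depend on the reference genes. The ratio of *Tnf* to *Lta* was higher with R848 than with Mock by 3.48-fold in wild type, by 1.15-fold in the TLR7-labelled mice and by 13.9-fold in the IFNAR-labelled mice. The neighbouring ligand genes thus changed unequally in wild type and in the IFNAR-labelled pair, mainly through *Lta* in the first and through *Tnf* in the second on the scale of the 3 reference genes.

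Markers of the cells that a spleen holds also differed between columns. The plate's myeloid markers (*Cd14*, *Clec4e*, *Ly96*, *Tlr4* and *Pglyrp1*) summed to 17.1% of the reference in wild-type Mock and 28.5% in R848, to 26.5% and 26.5% in the TLR7-labelled mice, and to 13.3% and 34.9% in the IFNAR-labelled mice. *Pglyrp1* had the lowest delta-Ct of the 5 in every column and made up most of each sum. Its log2 difference was 0.53 in wild type, -0.13 in the TLR7-labelled mice and 1.30 in the IFNAR-labelled mice. By gene, 3 of 5 were at least 2-fold higher in wild type and 1 of 5 in the TLR7-labelled mice. In the IFNAR-labelled mice 3 of 5 were higher and 1 was lower. Of the 84 pathway genes, 38.1% were at least 2-fold higher in wild type, 4.76% in the TLR7-labelled mice and 53.6% in the IFNAR-labelled mice. The shares lower were 13.1%, 3.57% and 2.38%. *Cd14*, at the cap in TLR7-labelled Mock and IFNAR-labelled R848, was the TLR7-labelled rise and the IFNAR-labelled fall. It sits in well A04, among the first 4 wells, which read unlike wild type in the deficient strains. The B cell-associated genes (*Btk*, *Cd80*, *Cd86* and *Ly86*) summed to 28.1% and 17.1% in wild-type Mock and R848. The sums were 24.1% and 19.7% in the TLR7-labelled mice, and 12.5% and 19.5% in the IFNAR-labelled mice. In wild type 2 of 4 were at least 2-fold lower. *Ly86* had the lowest delta-Ct of the 4 in every column. *Btk*, in well A01, gave 5.83% in wild-type Mock but was at the cap in all 4 columns of the deficient strains. The sums are therefore not alike in make-up between strains. The T and NK cell products *Il2* and *Ifng* summed to between 0.0958% and 0.230% over the 6 columns, with *Il2* at least 2-fold lower in wild type, *Ifng* at least 2-fold higher in the IFNAR-labelled pair, and *Il2* at the cap in both IFNAR-labelled columns. *Muc13*, *Ppara* and *Il1r1* were listed for non-haematopoietic cells, but which spleen cells expressed them was not measured. They summed to 0.402% and 0.530% in wild-type Mock and R848, and to 0.673% and 0.751% in the TLR7-labelled mice. In the IFNAR-labelled mice the sums were 0.211% and 0.631%, with 2 of 3 at least 2-fold higher and 1 open. The part of these marker levels in the ligand values was not tested. In whole spleen, fewer cells of a type and less RNA per cell cannot be told apart.

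Of the adaptors, *Tradd*, which docks on the death domain of TNFR1, was lower with R848 in every pair. Wild-type Mock and R848 read delta-Ct 3.25 and 4.67, the TLR7-labelled columns 3.20 and 3.63, and the IFNAR-labelled columns 2.33 and 3.43. Wild-type R848 held the lowest level and IFNAR-labelled Mock the highest, while the other 4 columns lay between 3.20 and 3.63. The log2 differences were -1.42, -0.43 and -1.10, which is 2.68-fold, 1.35-fold and 2.14-fold lower. Both 2-fold calls ended with *Hsp90ab1* alone as reference (-0.90 and -0.70). The IFNAR-labelled call also rested on its own Mock column: against wild-type Mock the log2 difference was -0.18, and against TLR7-labelled Mock it was -0.23.

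Few genes of the plate shared that direction on the 3-gene reference. There, of 69 genes with a measured direction in every pair, 4.35% were lower in all 3 pairs, namely *Tradd*, *Irf3* and *Nfkbil1*. By contrast, 52.2% were higher in all 3. How few depended on the scaling. With columns centred on their own medians *Lta*, *Ripk2* and *Fadd*, among others, were lower in all 3 pairs too. In wild type, the TLR7-labelled and the IFNAR-labelled pair, *Lta* was then at -2.6, -0.15 and -1.95. *Ripk2* was at -3, -0.45 and -1.55, and *Fadd* at -0.95, -0.25 and -2.65. Under all 7 scalings only *Tradd* of the 69 stayed lower in all 3 pairs (1.45%). On the 3-gene reference it was also the only one of the 69 at least 2-fold lower in both wild type and the IFNAR-labelled pair. The pairs do not share control samples. *Tnfrsf1a*, which encodes TNFR1, went the other way, among the 15.9% of genes higher in all 3 pairs under all scalings.

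*Tnfrsf1a* had delta-Ct values of 4.65 and 3.02 in wild-type Mock and R848, 3.90 and 3.53 in the TLR7-labelled mice, and 6.23 and 3.23 in the IFNAR-labelled mice. The Mock levels were spread over more than 2 cycles and the R848 levels over less than 1. Its log2 differences were 1.63, 0.37 and 3.00. The ratio of receptor to adaptor, *Tnfrsf1a* to *Tradd*, was therefore higher with R848 by 8.28-fold in wild type, by 1.74-fold in the TLR7-labelled mice and by 17.1-fold in the IFNAR-labelled mice, whatever the reference.

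*Fadd*, the adaptor that couples death receptors to caspase-8, had the narrowest range of the 5 members never at the cap under each choice of reference genes, though not with columns centred on their own medians. Its delta-Ct was 8.45 and 8.17 in wild-type Mock and R848, 7.90 and 7.93 in the TLR7-labelled mice, and 7.43 and 8.03 in the IFNAR-labelled mice. The R848 columns lay within 0.24 cycles of each other, and the Mock columns within 1.02. The whole range of 1.02 cycles was exceeded by 66 of the 69 genes that were never at the cap, whose median range was 2.42 cycles. With columns centred on their own medians it was 2.725 cycles, against 1.85 for *Tnf*. The log2 differences were 0.28 in wild type and -0.03 in the TLR7-labelled pair, with signs that turned under some scalings (to -0.95 and 0.10), and -0.60 in the IFNAR-labelled pair. That last value stayed below 0 under all scalings. It was past 2-fold with *Hprt1* alone (-1), with all 5 housekeeping genes (-1.22), after centring on the median gene (-1.85) and with columns centred on their own medians (-2.65).

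**Figure D2:**
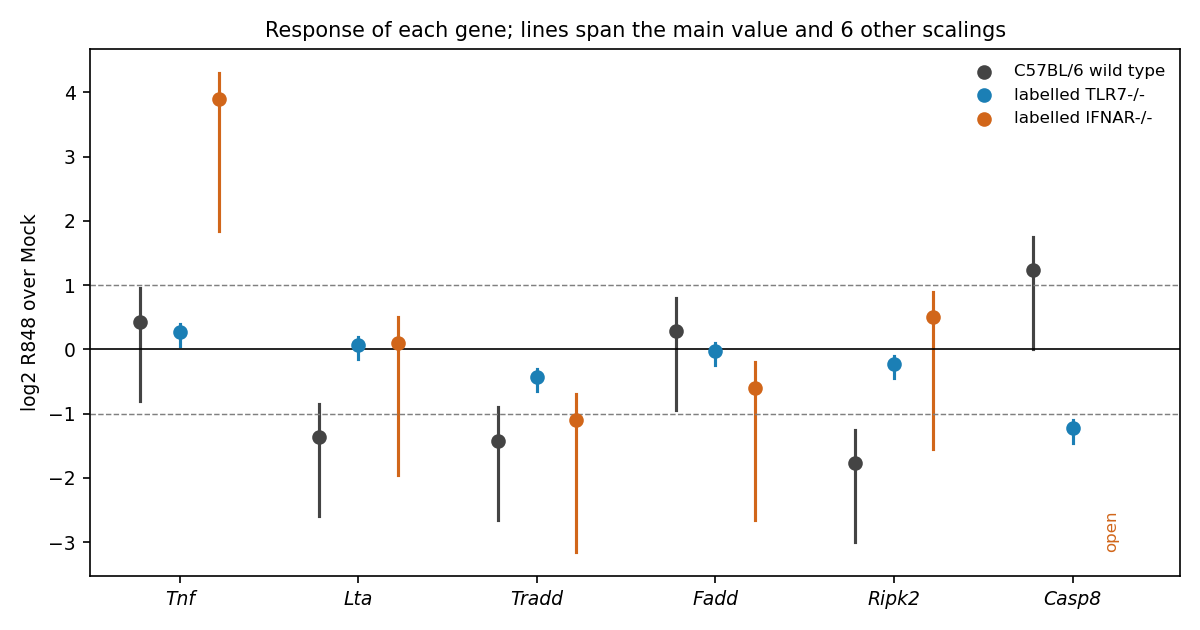
Log2 difference of R848 over Mock (vertical axis) for each gene, with dots for the 3-gene reference and lines from the lowest to the highest value over the 7 scalings. Dashed lines mark 2-fold. *Tradd* lies below 0 in all 3 strains over its whole range, and *Tnf* in the IFNAR-labelled pair lies between 1.85 and 4.30.

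*Ripk2*, the kinase of NOD signalling, was at least 2-fold lower in wild type alone. Wild-type Mock and R848 read delta-Ct 6.90 and 8.67, the TLR7-labelled columns 6.80 and 7.03, and the IFNAR-labelled columns 7.53 and 7.03. The wild-type R848 column stood apart, since the other 5 lay between 6.80 and 7.53. With R848, *Ripk2* was 3.41-fold lower in wild type, the second lowest of 79 genes of known direction, and stayed past 2-fold over all scalings, from -3.00 to -1.25. The log2 difference was -0.23 in the TLR7-labelled pair, below 0 under all scalings, and 0.50 in the IFNAR-labelled pair, where it turned to -0.12 with all 5 housekeeping genes, to -0.75 after centring on the median gene and to -1.55 with columns centred on their own medians. Against TLR7-labelled and wild-type Mock it was -0.23 and -0.13.

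*Casp8* encodes caspase-8, the protease that starts death-receptor apoptosis, and its readings in the deficient strains may be faulty. In wild type its delta-Ct was 6 in Mock and 4.77 in R848, a log2 difference of 1.23 or 2.35-fold higher. The 2-fold call ended with *Hprt1* alone (0.95), with 5 housekeeping genes (0.73) after centring on the median gene (0.82) and with columns centred on their own medians (0). In the TLR7-labelled pair it read 10.60 and 11.83, or 2.35-fold lower with R848. In the IFNAR-labelled pair it stood at the cap in both columns, so no direction is known there. The gene sits in well A02, and the wells beside it read unlike wild type as well. *Btk*, in A01, read 4.10 and 5.67 in wild type and was at the cap in all 4 columns of the deficient strains. *Ccl2*, in A03, read 9.80 and 9.92 in wild type, 4.70 and 10.13 in the TLR7-labelled pair, and 12.43, the cap, and 5.63 in the IFNAR-labelled pair. *Cd14*, in A04, was at the cap in TLR7-labelled Mock and IFNAR-labelled R848. The part of plate position in the *Casp8* values was not tested. Without the first 4 wells no member was 2-fold higher in wild type and none was 2-fold lower in the TLR7-labelled pair.

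**Figure D3:**
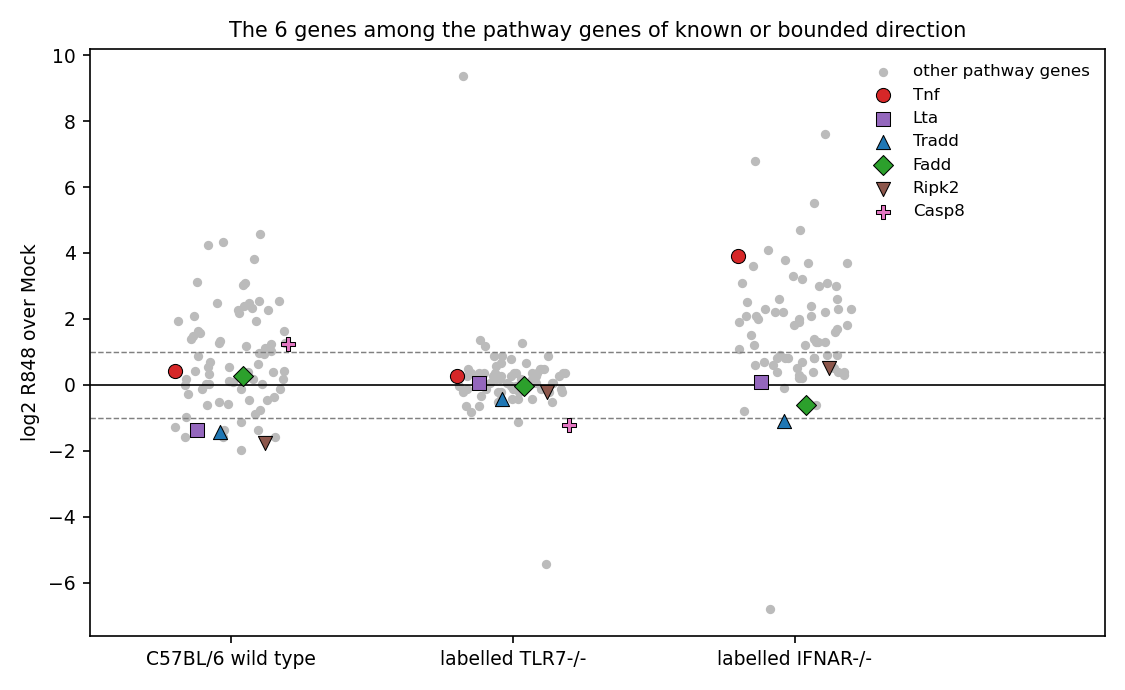
Log2 difference of R848 over Mock (vertical axis) of the pathway genes with a known or bounded direction in each strain, with the 6 genes in colour and the others in grey. Dashed lines mark 2-fold. In wild type *Ripk2*, *Tradd* and *Lta* sit at -1.77, -1.42 and -1.37 at the low edge of the plate, and *Tnf* at 0.43 near its middle.

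Levels were next compared between strains within a treatment. In Mock spleen no member but *Casp8* differed 2-fold between the TLR7-labelled mice and wild type, where 53.3% of 75 genes were higher and 2.67% lower. *Casp8*, whose readings in the deficient strains may be faulty, was 24.3-fold lower there. In the IFNAR-labelled Mock column *Fadd* was 2.03-fold above wild type, as 5.71% of 70 genes were, while *Tnf* was 3.68-fold and *Lta* 2.04-fold below it, as 30.0% were. The *Lta* and *Fadd* values fell within 2-fold under some scalings (to -0.275 and 0.85 on the log2 scale). *Casp8*, at the cap, was at least 86.2-fold lower. Against TLR7-labelled Mock, *Tnf* was 5.78-fold and *Lta* 3.32-fold lower in the IFNAR-labelled mice, as 66.7% of 69 genes were. Both calls ended after centring on the median gene (-0.95 and -0.15 on the log2 scale) or on each column's own median (-0.75 and 0.05). With these centrings *Tradd* and *Fadd*, at 0.87 and 0.47 on the 3-gene reference, were past 2-fold higher, up to 2.65 and 2.25. They were so with all 5 housekeeping genes as well (1.54 and 1.14), and *Tradd* reached 1 with *Hprt1* alone. Over wild-type Mock, *Tradd* in the IFNAR-labelled mice was at 0.92. It passed 2-fold with *Hsp90ab1* alone (1.20), all 5 housekeeping genes (1.16) and either centring (1.25 and 1.68).

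With R848 the deficient strains lay above wild type for several members. *Lta* was 4.41-fold, *Ripk2* 3.12-fold and *Tradd* 2.06-fold higher in the TLR7-labelled mice, where 31.6% of 79 genes were higher and 12.7%, *Casp8* among them at 133-fold, were lower. In the IFNAR-labelled mice *Ripk2* was 3.12-fold, *Tnf* 3.01-fold and *Tradd* 2.36-fold higher, against 33.8% of 74 genes below the cap, and no member was among the 9.46% that were lower. *Casp8*, at the cap and not among the 74, was at least 1144-fold lower. Its readings in both deficient strains, from well A02, may be faulty. Between the deficient strains, *Tnf* was 2.14-fold higher in the IFNAR-labelled mice, against 9.46% of 74 genes, and *Lta* 3.25-fold lower, against 8.11%. *Ripk2* read 7.03 in both. Of the higher levels, those of *Tradd* against wild type fell within 2-fold under some scalings (to 0.65 and 0.875 on the log2 scale), as did *Tnf* between the deficient strains (to 0.90).

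The responses themselves, each a log2 difference of R848 over Mock, were set against each other last. *Ripk2* and *Lta* lay 1.54 and 1.44 log2 units higher in the TLR7-labelled mice than in wild type. Both were among the 9.33% of 75 genes at least 1 unit higher. *Casp8* at -2.46, from readings that may be faulty, was among the 34.7% at least 1 unit lower. *Tradd* lay 0.99 higher there, and over 1 unit higher under 5 of the 6 other scalings, up to 2. In the IFNAR-labelled mice *Tnf* lay 3.47, *Ripk2* 2.27 and *Lta* 1.47 above wild type, among 44.9% of 69 genes, and no member was among the 4.35% at least 1 unit lower. *Fadd*, at -0.88, reached 1 unit lower under 5 of the 6 other scalings, to -1.72 at most. Over the scalings the *Ripk2* difference ranged from 1.15 to 2.55 in the first comparison and the *Tnf* difference from 2.625 to 3.70 in the second, while *Lta* fell to 0.625 in the second. *Tnf* alone of the members was over 1 unit higher in the IFNAR-labelled than in the TLR7-labelled mice, by 3.63, as were 62.3% of 69 genes. *Tradd* and *Fadd*, at -0.67 and -0.57, passed 1 unit lower with all 5 housekeeping genes (-1.18 and -1.08) and with either centring.

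Likeness to other genes was measured over the 6 delta-Ct values, on the 3-gene reference and with each gene centred on its own mean, as the root mean square difference among the 69 genes never at the cap. An offset shared by all genes of a column cancels in this difference, so the distances do not depend on the reference genes. They are a description only. *Ripk2* was nearest to *Cebpb*, a transcription factor of myeloid cells (0.234 cycles), and to *Nfkbia*, the NF-kB inhibitor (0.310 cycles). *Nfkbia* was also second nearest to *Lta* (0.417), after *Irf3*, an interferon regulatory factor (0.366). *Tnf* was nearest to *Tlr9*, the receptor for unmethylated DNA (0.344), and to *Ticam2*, an adaptor of TLR4 (0.467). *Tradd* was nearest to *Cebpb* (0.447) and *Fadd* (0.565), and *Fadd* to *Hras1* (0.339) and *Hrb* (0.379). The median distance of a member to all other genes was between 0.950 and 1.28 cycles.

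Other genes around the TNF receptor pathway were described by lists that overlap in part. The lists also hold genes of TLR signalling, such as *Myd88*, *Irak1* and *Traf6*. Other death-domain proteins had 3 of 6 genes at least 2-fold higher in wild type, where 38.1% of the plate was higher. None was higher in the TLR7-labelled mice, against 4.76%, and 5 of 6 in the IFNAR-labelled mice, against 53.6%. The direction of *Irak1* was open in each. In wild type *Myd88*, the common TLR adaptor, was highest at 2.48 and *Nfkb2* lowest at -0.47. In the IFNAR-labelled pair *Nfkb1* was highest at 3.70 and *Nfkb2* lowest at 1.90. None of the other 5 was 2-fold lower in any strain. The medians of 1.63, 0.37 and 3.00 stayed above 0 under all scalings.

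The genes listed for TNF receptor signalling to NF-kB had 4 of 13 higher and 1 lower in wild type. In the TLR7-labelled mice 0 of 13 passed 2-fold either way, and in the IFNAR-labelled mice 8 of 13 were higher. The plate as a whole had 38.1% and 53.6% higher in wild type and the IFNAR-labelled pair, so these shares were near the background. Their extremes in wild type were *Traf6*, a ubiquitin ligase (3.03), and *Nfkbia* (-1.57), and in the TLR7-labelled pair *Tnfaip3* (0.87) and *Nfkbia* (-0.43). In the IFNAR-labelled pair they were *Nfkb1* (3.70) and the kinase gene *Chuk* (0.40). The median was 0.38 in wild type, and as low as -0.85 over the scalings, 0.27 in the TLR7-labelled mice, and 1.80 in the IFNAR-labelled mice. The branch to JNK, p38 and AP-1 had 6 of 9 higher in wild type, 1 of 9 in the TLR7-labelled mice and 6 of 9 in the IFNAR-labelled mice, with none lower, against 38.1%, 4.76% and 53.6% of the plate higher. There *Jun* reached 2.48 and 4.10 in wild type and the IFNAR-labelled pair, and *Map2k3* 1.37 in the TLR7-labelled pair. The lowest values were 0.03 for *Map3k1*, -0.53 for *Fos* and 0.50 for *Map3k7*. Centring columns on their own medians turned the IFNAR-labelled medians of both branches to -0.25.

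Genes inducible by TNF through NF-kB were mixed in wild type. Of 12, 3 were higher, 3 lower and 2 open, against 38.1%, 13.1% and 5.95% of the plate. The highest was *Nfkb1* at 2.33 and the lowest *Nfkbia* at -1.57. In the TLR7-labelled pair 1 was higher, *Ptgs2* (1.17), 1 lower, *Ccl2* (-5.43, in well A03), and 1 open, against 4.76%, 3.57% and 5.95%. In the IFNAR-labelled pair, where the R848 level of *Tnf* was highest, 7 of 12 were higher, 4 were within 2-fold and 1 was open, against 53.6% of the plate higher. The highest there was *Ccl2*, at least 111-fold with Mock at the cap. It too rests on well A03, among the first 4 wells, which read unlike wild type in the deficient strains. The lowest was *Ptgs2*, at least 0.20 on the log2 scale. The medians were -0.20 in wild type, which turned to 0.33 with *Hsp90ab1* alone, 0.27 in the TLR7-labelled mice and 1.90 in the IFNAR-labelled mice. Other lymphocyte cytokines (*Il2*, *Ifng*, *Il10* and *Csf2*) had 1 of 4 higher and 2 lower in wild type, against 38.1% and 13.1% of the plate. In the TLR7-labelled mice 0 of 4 passed 2-fold either way, against 4.76% and 3.57%. In the IFNAR-labelled mice 2 were higher and 1 was open, against 53.6% and 10.7%. *Il10* was highest in wild type and the IFNAR-labelled pair (4.23 and at least 7.60), *Il2* lowest in wild type (-1.57), and *Csf2* lowest in the deficient strains (-0.83 and 0.80).

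**Figure D4:**
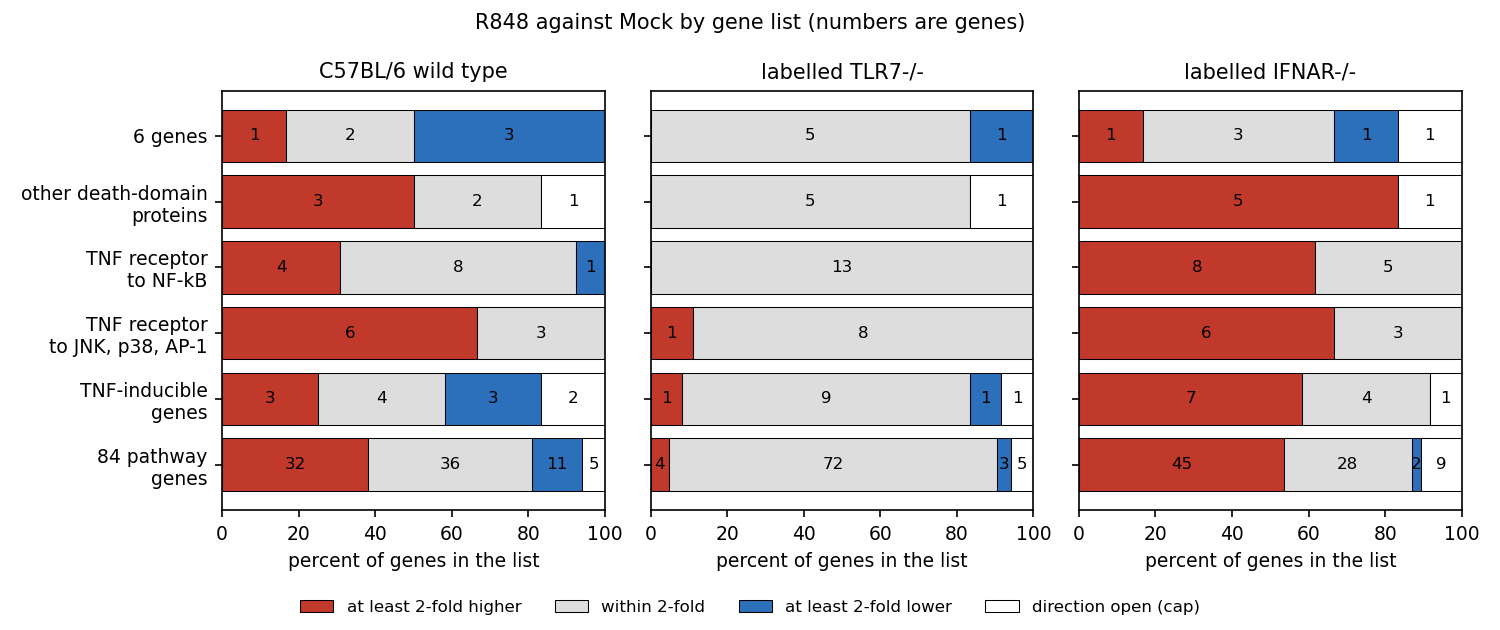
Share of each gene list (horizontal axis, percent of its genes, with gene counts printed on the bars) that was at least 2-fold higher, within 2-fold, at least 2-fold lower or of open direction with R848, by strain. The 6 genes have 3 lower in wild type, against 13.1% of the 84 pathway genes, and 1 lower with *Hsp90ab1* alone as reference. The receptor's branch to JNK, p38 and AP-1 has 6 of 9 higher and none lower there, against 38.1% of the 84 higher.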

How the data were processed

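Spleen RNA was read on a TLR pathway PCR plate. Per the file headers, the deposited values are delta-Ct, a log2 scale, and a linear fold, the authors' ratio of R848 to Mock. Per the labels and the series' design text, RNA of 3 mice was pooled, Ct above 35 or blank was set to 35, and the reference was the mean of 3 genes. The wild-type values are the authors' mean of 2 experiments. Raw Ct values are not analysed here, and 6 further columns of per-sample values repeat the delta-Ct and were not used.

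Strain was taken from each table's name and treatment from its column. The log2 difference is Mock minus R848 delta-Ct, and the authors' fold differences matched it for 89 of 89 genes in each table, within 0.01 cycles and 0.005 of a fold. A value at the cap gives a bound, or an open direction. Calls are at 2-fold. A permutation test planned for separate wild-type experiments was not run, since the tables used here hold only their mean. The members, lists, motifs and tests were chosen with earlier results of these data known. The rule named the 6 genes, *Tnfrsf1a*, each member's 2 nearest genes and each list's extremes. *Btk*, *Ccl2*, *Cd14*, *Il2*, *Ifng*, *Irak1*, *Nfkbil1*, *Pglyrp1* and *Tlr7* were named after their values were seen. Alternatives were other references, thresholds, leaving out capped genes or the first 4 wells, and, added after seeing the data, own-median centring and other Mock columns. Calling was tried on simulated plates, which held no shift of the reference between columns, so the trial does not cover such shifts. Python 3.11.15, numpy 2.4.6 and pandas 2.3.3 were used. Promoters came from RefSeq (GRCm38.p6), where 4 of 6 members matched.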

Additional observations from a re-analysis of the deposited data

Results flagged for a closer look

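With 1 value per group, 4 differences stand out because a gene moved in opposite directions in 2 strains and the responses lay at least 1 log2 unit apart. None of these differences was tested. *Ripk2* was lower with R848 in wild type and higher in the IFNAR-labelled pair, a difference of 2.27 on the log2 scale. The IFNAR-labelled value of 0.50 turned below 0 with all 5 housekeeping genes (-0.12), with either centring (-0.75 and -1.55) and against the other Mock columns (-0.23 and -0.13). *Lta* was lower in wild type and slightly higher in the TLR7-labelled and IFNAR-labelled pairs, at 0.07 and 0.10. These responses lay 1.44 and 1.47 above that of wild type. The values of 0.07 and 0.10 do not keep their sign under all scalings. *Casp8* was higher in wild type and lower in the TLR7-labelled pair, a difference of -2.46 that rests on well A02.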

How the results depend on the processing

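No paired analysis was possible because the 2 wild-type experiments are given only as their mean. *Ripk2*, lower in wild type, and *Tnf*, higher in the IFNAR-labelled pair, kept direction and 2-fold under every scaling. Of 117 alternative values of single members' responses, 81 kept direction and side of 2-fold, 9 lost it, 4 gained it and 23, none of them 2-fold before, changed sign. Of those 23, 4 also passed 2-fold in the other direction, *Lta* and *Ripk2* in the IFNAR-labelled pair. The cause was not tested. Members higher in wild type went from 1 to 0 with *Hprt1* alone, 5 housekeeping genes, either centring, 3-fold, or without the first 4 wells. Members lower there went from 3 to 1 with *Hsp90ab1* alone or at 3-fold. The 1 lower in the TLR7-labelled pair went to 0 at 3-fold or without the first wells. The 1 lower in the IFNAR-labelled pair went to 0 with *Hsp90ab1* alone or at 3-fold, to 2 with *Hprt1* alone, 5 housekeeping genes or 1.5-fold, to 3 after centring on the median gene and to 4 with own-median centring.

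Over the plate, wild-type counts of 32 higher and 11 lower became 15 and 33 with own-median centring, and 21 and 2 at 3-fold; the lower count was 5 with *Hsp90ab1* and 17 with 5 housekeeping genes. TLR7-labelled counts of 4 and 3 became 10 and 6 at 1.5-fold and 1 and 1 at 3-fold; the higher count was 7 with *Hsp90ab1* and the lower 1 without the first wells. IFNAR-labelled counts of 45 and 2 became 23 and 9 after centring on the median gene and 14 and 30 with own-median centring; the lower count was 5 with *Hprt1*, 5 housekeeping genes or 1.5-fold, and 1 with *Hsp90ab1*, at 3-fold, or without capped genes or the first wells.

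The members' median in wild type was -0.82 with *Hprt1*, -0.02 with *Hsp90ab1*, -0.78 with *Gapdh*, -1.05 with 5 housekeeping genes, -0.95 and -1.78 with the centrings, and -1.37 without *Casp8*. In the TLR7-labelled pair it was -0.30 with *Hprt1*, 0 with *Hsp90ab1*, -0.24 with 5 housekeeping genes, -0.35 with own-median centring and -0.03 without *Casp8*. In the IFNAR-labelled pair it was -0.30, 0.50 and -0.52 with those references, and -1.15 and -1.95 with the centrings. Own-median centring reversed IFNAR-labelled medians to -0.25 for both receptor branches, -0.15 for TNF-inducible genes and -0.85 for lymphocyte cytokines (-0.05 with the median gene), and turned Mock *Lta*, IFNAR-labelled over TLR7-labelled, to 0.05. The Ct cap limits *Casp8* alone among the members.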
